A study of Mus musculus with 18 samples.

Results

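The 40 genes described here belong to the interferon response: 6 sensors of foreign or misplaced nucleic acid, 7 genes of the 2'-5'-oligoadenylate synthetase (OAS) family, 8 regulators of the response and 19 effectors. They were chosen by symbol, from a list drawn up with their levels in these libraries already known, and all 40 were found among the 25239 symbols of the deposited count table. Their levels are therefore given as a description, without p-values. RNA was sequenced from mouse stem cells, 18 libraries in 6 groups of 3, to follow the passage from primed to naive pluripotency. EpiSC are the primed cells at day 0, D3, D5 and D8 are transient cells at days 3, 5 and 8, rES are the naive cells at the end of the transition, and ESC are mouse embryonic stem cells as the naive reference. The labels give every group as stem cells from mouse embryo and name no strain, allele, culture medium or agent. Nothing in them says that the 3 libraries of a group came from separate cultures, so the p-values below measure the spread between these libraries, which may be technical.

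Cells recognise viral RNA in the cytoplasm through the helicases encoded by Ddx58 (RIG-I) and Ifih1 (MDA5), which signal through the mitochondrial adaptor Mavs to the transcription factors Irf3 and Irf7 and so to the interferon genes. Secreted type I interferon binds the receptor made of Ifnar1 and Ifnar2, type III interferon binds Ifnlr1 with Il10rb, and both activate a complex containing Stat2 and Irf9 that binds the interferon-stimulated response element (ISRE) in the promoters of its target genes. Pluripotent cells are known for making little interferon and responding weakly to it, while expressing a few of the antiviral genes without it.

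The libraries held 58.4 to 101.6 M counts, with 15835 to 18248 genes above 0. Levels are in CPM, a gene's counts in proportion to the TMM-scaled library total, and values for a group are given in the order of replicates 1, 2 and 3. Group means are followed by the SD over 3 libraries, and each log2 difference by a standard error that is approximate. A floor of 12 deposited counts per library, 0.118 to 0.206 CPM, marks where a gene could not be told from 0, and covers counting error only. Where a group stood under it, levels are given in place of a fold. Markers of the naive state summed to 58.8 to 65.5 CPM in EpiSC, 4426 to 4498 CPM in rES and 4556 to 4614 CPM in ESC. Those of the primed state summed to 1948 to 2127 CPM in EpiSC, mostly through Dnmt3b, and to 229.9 to 243 CPM in rES. The primed sum had means of 71.4 CPM at D5, 85.0 CPM at D8 and 157.7 CPM in ESC. Of the primed markers, T had its highest mean in rES, at 1.79 CPM, and Foxa2 at D8, at 3.12 CPM. In RNA from whole cultures, fewer cells that express a gene and less RNA of it per cell cannot be told apart.

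The interferon-response genes were mostly low in primed cells, rose between D3 and D5, stood highest at D8 and were mostly low in naive cells. Of the 40, 33 had their highest group mean at D8 and 2, Ifih1 and Eif2ak2, at D5. Trim25 and Ifitm1 were highest in ESC, Irf1 and Ifitm2 in rES, and Oas3 in EpiSC. A mean of at least 5 CPM was reached by 9 of the 40 in EpiSC, 14 at D3, 30 at D5, 35 at D8, 15 in rES and 14 in ESC. Under the floor were 16 in EpiSC, 10 at D3, none at D5 or D8, 8 in rES and 13 in ESC.

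Counts of calls are given beside the share of all 17545 tested genes called in the same direction, and nothing is read from them, since the choice of the genes used these libraries. A call is an adjusted p under 0.05 by edgeR's quasi-likelihood test with Benjamini-Hochberg adjustment over all tested genes. All 40 genes passed the filter on low counts, several of them only through their D5 and D8 libraries. Against EpiSC, 21 genes were called higher at D3 and 5 lower, beside 34.1% and 30.2% of all genes. At D5, 36 were called higher (37.7% of all genes) and 3 lower (34.3%), the lower ones being Oas3, Irf1 and Ifitm2. At D8, 37 were called higher (42.4%) and 2 lower (34.5%), Oas3 and Ifitm2, of which 1 was left without EpiSC replicate 1, EpiSC replicate 2 or D8 replicate 1. In rES 21 were called higher than EpiSC (31.9%) and 7 lower (37.5%), or 4 lower without rES replicate 3. In ESC 18 were called higher (31.2%) and 9 lower (36.1%). Both groups lay under the floor for 3 of the calls at D3 (Oas2, Oasl1 and Ifit3), for Ifit1 in rES, and for Ifit3 and Isg15 in ESC. Fitted on those 2 groups alone, ESC gave 18 higher and 5 lower. These 5 comparisons share the EpiSC libraries.

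The same counts are given for the steps between neighbouring groups, and likewise nothing is read from them. From D3 to D5, 35 genes were called higher (29.9% of all genes) and 4 lower (29.6%), the lower ones being Irf1 and the membrane proteins Ifitm1, Ifitm2 and Ifitm3. From D5 to D8, 29 were called higher (25.1%) and 1, Eif2ak2, lower (22.0%). In rES against D8, 36 were called lower (38.4%) and 4 higher (32.7%), namely Irf1, Trim25, Ifitm1 and Ifitm2. The median log2 difference over the 40 was 4.59 at D5 and 5.84 at D8 against EpiSC, and -3.91 in rES against D8, with genes that had no counts in a group set at the bound the floor allows. The medians over all tested genes were 0.02, 0.19 and -0.09.

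**Figure D1:**
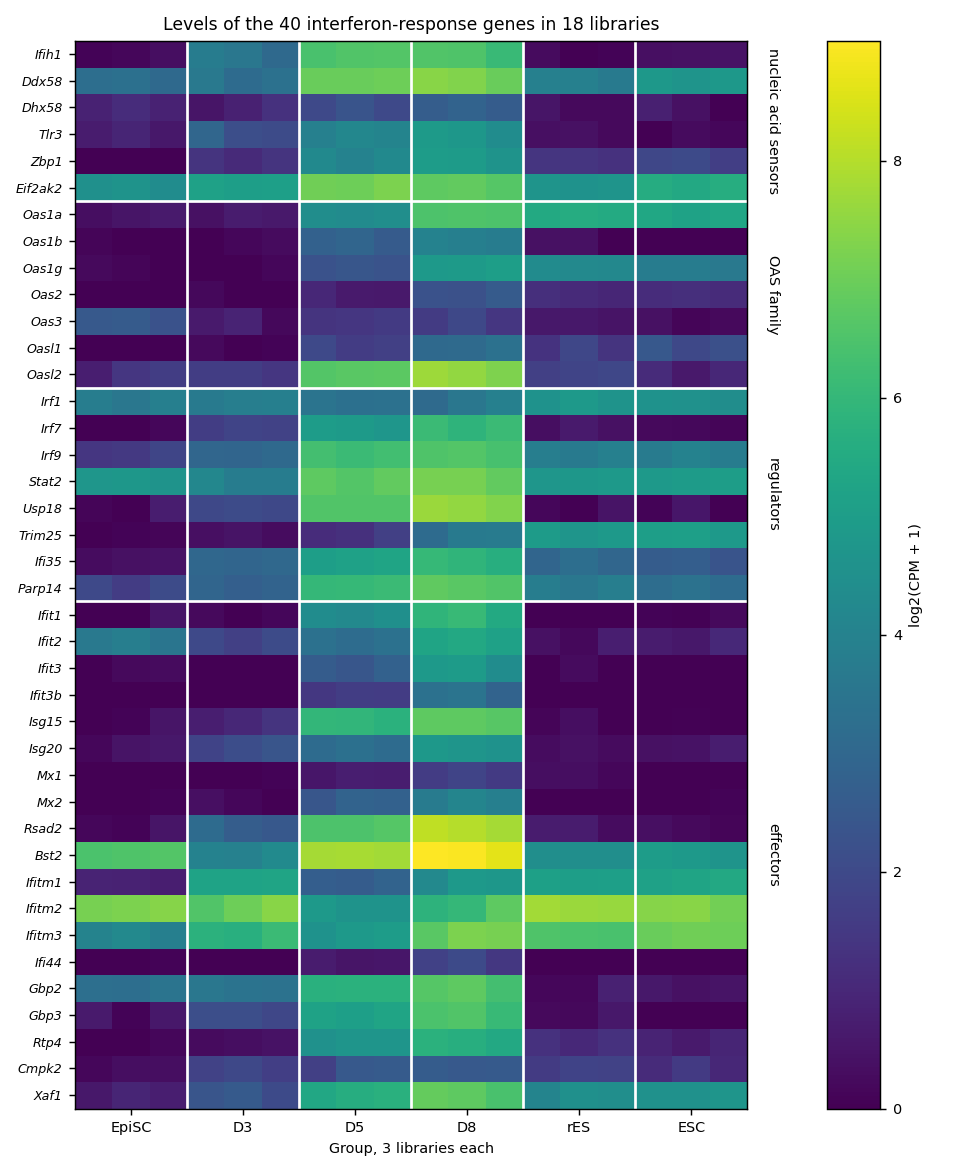
Level of each of the 40 genes (rows, by role) in each of the 18 libraries (columns, 3 per group), coloured by log2(CPM + 1). The D5 and D8 columns are bright for most rows, with 30 and 35 of 40 genes at a mean of at least 5 CPM. Ifitm1 and Trim25 are brightest in ESC, Irf1 and Ifitm2 in rES, and Oas3 in EpiSC.

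Interferon-stimulated promoters carry the ISRE close to the start of transcription, so the promoters of the members were searched for it. RefSeq promoters on GRCm38.p6, 250 bases before to 50 after each gene's most upstream start, were available for 31 of the 40 genes. The ISRE core, searched as a pair of GAAA blocks with any 2 bases between them, on both strands, was found in 17 of the 31 (54.8%) and in 944 of all 27025 promoters of the same length (3.49%). By role, it was found in 3 of 4 sensors, 3 of 5 OAS genes, 1 of 6 regulators and 10 of 16 effectors with a promoter. The gamma-activated site, the element used in the response to interferon gamma, searched as TTCNNNGAA, was found in 8 of the 31 (25.8%) and in 8.42% of all promoters. A match is a description of the letters and not a tested site. The 160 bases before the start of 6 genes that hold exact ISRE matches there are printed 5′ to 3′ on the gene's own strand, with the matched bases in capitals. Adjoining matches overlap by a repeat unit and are merged into a longer capital run, and a match on the opposite strand reads as a pair of TTTC blocks.
Isg15, chr4:156200819-156200978, minus strand: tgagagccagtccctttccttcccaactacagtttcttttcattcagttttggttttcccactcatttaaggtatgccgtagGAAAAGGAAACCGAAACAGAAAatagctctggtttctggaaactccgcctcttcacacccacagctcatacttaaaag
Rsad2, chr12:26456453-26456612, minus strand: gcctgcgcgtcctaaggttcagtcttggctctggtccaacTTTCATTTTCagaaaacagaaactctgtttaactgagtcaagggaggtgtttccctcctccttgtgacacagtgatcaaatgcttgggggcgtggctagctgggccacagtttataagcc
Ifit3, chr19:34583369-34583528, plus strand: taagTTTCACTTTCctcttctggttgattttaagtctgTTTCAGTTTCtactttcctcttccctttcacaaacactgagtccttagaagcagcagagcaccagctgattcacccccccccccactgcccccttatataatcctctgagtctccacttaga
Ifit3b, chr19:34607797-34607956, plus strand: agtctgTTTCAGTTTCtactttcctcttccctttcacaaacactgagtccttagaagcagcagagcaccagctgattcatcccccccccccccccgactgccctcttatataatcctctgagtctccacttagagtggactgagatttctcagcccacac
Bst2, chr8:71537473-71537632, minus strand: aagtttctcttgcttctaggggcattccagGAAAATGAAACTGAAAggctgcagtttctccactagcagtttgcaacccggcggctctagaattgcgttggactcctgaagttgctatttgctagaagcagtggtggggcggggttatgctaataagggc
Oas1a, chr5:120907526-120907685, minus strand: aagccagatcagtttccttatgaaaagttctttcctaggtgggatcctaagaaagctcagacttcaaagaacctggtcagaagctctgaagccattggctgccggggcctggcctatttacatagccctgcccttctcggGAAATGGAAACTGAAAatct

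The same stretch is shown for 2 genes with a high D8 level and no exact match in the window, for comparison with the 6 above. With up to 1 mismatch allowed, both have a match in the promoter searched.
Oasl2, chr5:114896774-114896933, plus strand: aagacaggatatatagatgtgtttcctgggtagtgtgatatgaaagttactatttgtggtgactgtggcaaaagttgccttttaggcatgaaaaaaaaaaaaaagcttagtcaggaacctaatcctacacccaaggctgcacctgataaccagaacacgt
Xaf1, chr11:72301469-72301628, plus strand: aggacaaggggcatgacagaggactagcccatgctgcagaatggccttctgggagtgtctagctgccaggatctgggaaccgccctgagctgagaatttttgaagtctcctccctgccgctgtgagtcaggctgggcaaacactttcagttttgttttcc
The Isg15 stretch holds 3 overlapping matches, those of Bst2 and Oas1a 2 each, and that of Ifit3 2 separate ones. Ifit3b, a close copy of Ifit3, has 1 in the stretch printed and another farther upstream. Of the 17 genes with a match, 13 were highest at D8, as were 11 of the 14 without. Their rES level was a median of 4.44% of the D8 level, and that of genes without a match 13.79%, given without a test.

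Among the 6 nucleic acid sensors, the first described are the RNA helicases of the RIG-I family. Ifih1 (MDA5, chr2:62595798-62646255 on mm10), which binds long double-stranded RNA, was near the floor in primed and naive cells and already above EpiSC at D3. Ifih1 stood at 0.0642, 0.127 and 0.249 CPM in EpiSC and at 12.8, 11.04 and 7.51 CPM at D3. At D5 Ifih1 had 85.7, 94.6 and 95.8 CPM and at D8 93.0, 91.8 and 68.7 CPM. In the naive groups Ifih1 was at 0.207, 0 and 0.0612 CPM in rES and 0.284, 0.328 and 0.367 CPM in ESC. The D3 libraries lay above every EpiSC library, D5 and D8 overlapped, and the rES mean was under the floor, which allows at most 0.226% of the D8 mean.

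Ddx58 (RIG-I, chr4:40203773-40239828), which binds RNA with 5′ triphosphate ends, was present in every group. Ddx58 had 8.54, 8.94 and 7.44 CPM in EpiSC and 11.5, 7.82 and 9.25 CPM at D3, which overlapped. It reached 121, 122 and 129.9 CPM at D5 and 170.0, 157 and 124 CPM at D8. The rES libraries held 14.1, 14.4 and 12.3 CPM of Ddx58 and the ESC libraries 27.3, 24.6 and 27.0 CPM. The log2 difference of Ddx58 was 3.71 ± 0.14 from D3 to D5, -3.47 ± 0.14 from D8 to rES and 1.66 ± 0.13 between ESC and EpiSC. The naive cells thus lay above the primed ones. Dhx58 (LGP2), a helicase without signalling domains that tunes the other two, was the lowest of this family at D3, D5 and D8. Dhx58 measured 0.835, 1.20 and 0.825 CPM in EpiSC, 0.408, 0.765 and 1.43 CPM at D3, 3.02, 4.07 and 2.95 CPM at D5 and 5.34, 6.28 and 5.20 CPM at D8. Its naive levels were 0.429, 0.181 and 0.184 CPM in rES and 0.734, 0.311 and 0 CPM in ESC, both below EpiSC in every library.

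Tlr3, the endosomal receptor for double-stranded RNA, was likewise above EpiSC by D3. Tlr3 rose from 0.626, 0.919 and 0.483 CPM in EpiSC to 6.79, 3.47 and 3.18 CPM at D3, a log2 difference of 2.72 ± 0.38. Tlr3 then stood at 14.4, 16.8 and 15.8 CPM at D5 and 29.4, 26.1 and 20.1 CPM at D8. It had 0.302, 0.313 and 0.184 CPM in rES and 0, 0.197 and 0.113 CPM in ESC, below the EpiSC libraries in both groups. Zbp1, a sensor of Z-form nucleic acid linked to necroptosis, had no counts in any EpiSC library. Zbp1 was measured at 1.53, 1.12 and 1.55 CPM at D3, 18.4, 14.9 and 18.5 CPM at D5 and 30.5, 29.7 and 23.5 CPM at D8. The naive libraries had 1.60, 1.63 and 1.42 CPM of Zbp1 in rES and 2.75, 3.05 and 2.19 CPM in ESC. D8 was at least 147-fold above EpiSC and ESC at least 14.0-fold, against the floor.

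Eif2ak2 (PKR), the kinase that halts translation when it binds double-stranded RNA, had the highest primed level of the sensors in CPM per kb of exon, 4.31 against 1.18 for Ddx58. Eif2ak2 had 22.1, 24.0 and 20.0 CPM in EpiSC, 34.96, 32.5 and 33.0 CPM at D3 and 133, 129 and 150.1 CPM at D5. It was lower at D8, with 109, 113 and 97.7 CPM and a log2 difference from D5 of -0.37 ± 0.08. The rES libraries had 24.7, 23.3 and 24.6 CPM of Eif2ak2, overlapping EpiSC, and the ESC libraries 46.6, 42.3 and 48.4 CPM. No other gene of the 40 was called lower from D5 to D8.

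The OAS enzymes make 2'-5'-oligoadenylate when they bind double-stranded RNA. The 5 Oas genes of the list lie within 1 stretch of chromosome 5 (120730333-120907521 on mm10), and the related Oasl1 and Oasl2 in another (114896936-114937915). Oas1a, an active synthetase, kept much of its D8 level in rES. Oas1a had 0.257, 0.412 and 0.561 CPM in EpiSC and 0.326, 0.597 and 0.542 CPM at D3. It rose to 20.2, 19.3 and 20.8 CPM at D5 and 88.4, 91.4 and 88.8 CPM at D8. In rES Oas1a still had 43.9, 47.1 and 44.2 CPM and in ESC 40.2, 35.7 and 39.3 CPM. The naive libraries lay below D8 and far above EpiSC, with log2 differences of -0.99 ± 0.12 and 6.77 ± 0.18 for rES. Oas1g, whose coding sequence is 96.8% identical to that of Oas1a, moved in the same way. Oas1g measured 0.161, 0.0792 and 0 CPM in EpiSC, 0, 0 and 0.128 CPM at D3 and 3.77, 4.36 and 3.91 CPM at D5. It was at 28.0, 29.4 and 32.4 CPM at D8, 19.6, 17.9 and 17.4 CPM in rES and 12.9, 12.9 and 11.6 CPM in ESC. Reads of this pair may have been shared between the copies, so their separate levels are uncertain.

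Oas1b, known for resistance to flaviviruses, is 77.7% identical to Oas1a and did not persist. GENCODE lists it as a polymorphic pseudogene, and the labels name no strain. Oas1b had 0.0963, 0 and 0 CPM in EpiSC, 0, 0.107 and 0.214 CPM at D3, 5.90, 6.66 and 5.08 CPM at D5 and 15.04, 13.9 and 12.9 CPM at D8. It was at 0.318, 0.33 and 0 CPM in rES and without counts in the 3 ESC libraries, and the rES mean was 1.55% of D8. Oasl2, a ubiquitin-like relative, was the most abundant of the family at D8 in CPM, and Oas1a in CPM per kb (47.5 against 28.4). Oasl2 stood at 0.706, 1.70 and 2.09 CPM in EpiSC and 2.12, 2.14 and 1.70 CPM at D3. Oasl2 then reached 97.0, 103 and 107 CPM at D5 and 204, 188 and 152 CPM at D8. The naive libraries had 2.27, 2.62 and 2.76 CPM of Oasl2 in rES and 1.17, 0.54 and 1.02 CPM in ESC, where the rES mean was 1.41% of D8.

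Oasl1, a relative that restrains Irf7 translation, was absent from EpiSC and present in naive cells at a lower level than at D8. Oasl1 had no counts in EpiSC, 0.163, 0 and 0.057 CPM at D3, 2.98, 2.06 and 2.24 CPM at D5 and 7.505, 7.64 and 9.30 CPM at D8. It was at 1.53, 2.79 and 1.55 CPM in rES and 4.54, 2.83 and 3.60 CPM in ESC, at least 19.3-fold above EpiSC for ESC. Oas2 and Oas3 never reached 5 CPM as a mean. Oas2 had no counts in EpiSC, at most 0.713 CPM as a mean before D8 and 4.20 ± 0.704 CPM at D8. Oas3 had its highest level in EpiSC, at 4.57 ± 0.62 CPM, and was at 0.523 ± 0.351 CPM at D3, 1.73 ± 0.152 CPM at D5, 2.17 ± 0.606 CPM at D8, 0.467 ± 0.0607 CPM in rES and 0.2 ± 0.11 CPM in ESC.

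The 8 regulators include the transcription factors that carry the interferon signal. Irf7, the factor that amplifies interferon production, was close to the floor outside the transition. Irf7 had 0, 0 and 0.125 CPM in EpiSC, 2.14, 2.57 and 2.45 CPM at D3 and 31.0, 29.2 and 25.9 CPM at D5. Its D8 libraries had 69.5, 57.7 and 69.3 CPM, the rES libraries 0.27, 0.561 and 0.337 CPM and the ESC libraries 0.167, 0.147 and 0.0848 CPM. Each step up was without overlap, and rES kept 0.594% of the D8 mean. Irf9, the DNA-binding part of the complex with Stat2, fell less far. Irf9 stood at 1.70, 1.82 and 2.66 CPM in EpiSC and 6.83, 6.70 and 7.51 CPM at D3. Irf9 rose to 78.5, 69.1 and 76.6 CPM at D5 and 91.7, 96.8 and 83.0 CPM at D8. In naive cells Irf9 was at 13.6, 12.2 and 14.2 CPM in rES and 12.5, 15.03 and 12.8 CPM in ESC, above EpiSC by 2.69 ± 0.14 and 2.70 ± 0.14 on the log2 scale.

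Stat2, the other part of that complex, dipped before it rose. Stat2 had 25.4, 26.3 and 23.5 CPM in EpiSC and 16.9, 12.9 and 12.7 CPM at D3, a log2 difference of -0.83 ± 0.11. It reached 108, 97.2 and 113 CPM at D5 and 141, 141 and 115 CPM at D8. The naive groups had 25.9, 26.2 and 28.5 CPM of Stat2 in rES and 28.4, 30.0 and 31.2 CPM in ESC. The rES libraries overlapped EpiSC, and the ESC libraries lay above EpiSC by 0.25 ± 0.11. Irf1, an interferon-inducible factor that can also act without the complex, did not join the rise. Irf1 had 13.0, 11.03 and 13.7 CPM in EpiSC, 12.02, 13.5 and 13.8 CPM at D3, 10.2, 9.08 and 9.26 CPM at D5 and 7.77, 10.9 and 14.3 CPM at D8. It was highest in naive cells, at 22.9, 27.5 and 23.9 CPM in rES and 23.4, 22.9 and 20.2 CPM in ESC. The 3 D8 libraries spread across the EpiSC and D5 ranges, and no call was made for Irf1 at D8 against EpiSC.

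Usp18, the protease that removes Isg15 from proteins and blocks receptor signalling, was close to the floor in primed and naive cells. Usp18 had 0.0963, 0 and 0.638 CPM in EpiSC and 2.84, 3.14 and 2.87 CPM at D3. Usp18 reached 94.8, 93.3 and 94.9 CPM at D5 and 203, 187 and 157 CPM at D8. It was at 0.111, 0 and 0.398 CPM in rES and 0.0667, 0.442 and 0 CPM in ESC. Every D5 library lay above every D3 library, and the rES and ESC means were both under the floor. Trim25, the ubiquitin ligase that acts with RIG-I, followed another course. Trim25 measured 0, 0.0634 and 0.0934 CPM in EpiSC, 0.294, 0.382 and 0.242 CPM at D3 and 1.20, 1.37 and 2.26 CPM at D5. Trim25 rose to 7.91, 12.2 and 12.3 CPM at D8, 29.6, 24.96 and 27.9 CPM in rES and 32.0, 33.3 and 27.6 CPM in ESC. No D8 library reached a naive one, and rES exceeded D8 by 1.34 ± 0.23 on the log2 scale.

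Ifi35, an inducible protein that binds Nmi, and Parp14, an ADP-ribosyltransferase, rose at every step to D8 and kept part of that level. Ifi35 had 0.225, 0.317 and 0.358 CPM in EpiSC, 7.13, 6.64 and 7.21 CPM at D3, 32.5, 35.03 and 37.2 CPM at D5 and 64.8, 58.04 and 49.2 CPM at D8. Its naive levels were 6.69, 8.59 and 6.81 CPM in rES and 5.15, 5.40 and 4.03 CPM in ESC. Exons of Ifi35 share 16.8% of their length with a gene on the opposite strand, and the strand setting of the counts is not given in the sources used here. Parp14 stood at 2.94, 2.03 and 3.15 CPM in EpiSC, 6.62, 5.57 and 6.23 CPM at D3, 62.7, 64.4 and 69.0 CPM at D5 and 112, 104 and 92.8 CPM at D8. It had 13.2, 10.9 and 13.6 CPM in rES and 8.31, 9.50 and 7.91 CPM in ESC. For both genes every rES library lay above every ESC library, by 0.60 ± 0.14 for Ifi35 and 0.55 ± 0.13 for Parp14 on the log2 scale.

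Of the 19 effectors, Rsad2 and Isg15, classical targets of the interferon complex, have the ISRE matches printed above. Rsad2 (viperin), which makes a chain-terminating nucleotide, had 0.128, 0.0634 and 0.436 CPM in EpiSC and 7.99, 5.28 and 4.56 CPM at D3. Rsad2 reached 90.1, 89.1 and 98.0 CPM at D5 and 282, 259 and 224 CPM at D8. In rES it was at 0.604, 0.627 and 0.245 CPM and in ESC at 0.3, 0.164 and 0.0989 CPM. The log2 difference of Rsad2 was 10.23 ± 0.37 at D8 against EpiSC and -9.02 ± 0.34 in rES against D8. Isg15, the ubiquitin-like protein attached to newly made proteins, had 0, 0.0634 and 0.436 CPM in EpiSC and 0.701, 0.994 and 1.57 CPM at D3. Isg15 rose to 61.8, 60.6 and 53.3 CPM at D5 and 109, 109 and 101 CPM at D8. It was at 0.0953, 0.247 and 0 CPM in rES and 0, 0.0491 and 0 CPM in ESC, with the means of EpiSC, rES and ESC under the floor. Cmpk2, a nucleotide kinase next to Rsad2 on chromosome 12, stayed under 5 CPM as a mean in every group. It was at 0.21 ± 0.0854 CPM in EpiSC, 4.90 ± 0.182 CPM at D8 and 2.30 ± 0.315 CPM in rES.

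The 4 Ifit genes, whose products bind viral RNA without the host's cap marks, lie together on chromosome 19 (34550694-34650009 on mm10). Ifit1 had 0, 0 and 0.436 CPM in EpiSC, 0.163, 0 and 0.114 CPM at D3, 19.8, 18.1 and 21.4 CPM at D5 and 59.2, 66.8 and 43.6 CPM at D8. In rES Ifit1 had no counts in any library, at least 296-fold below D8, and in ESC it was at 0.0667, 0.0491 and 0.184 CPM. Ifit2 differed from its neighbours in the primed cells. Ifit2 was at 11.6, 13.6 and 10.2 CPM in EpiSC, 3.001, 2.23 and 3.21 CPM at D3, 9.40, 8.002 and 9.22 CPM at D5 and 37.5, 42.4 and 34.6 CPM at D8. It had 0.318, 0.132 and 0.689 CPM in rES and 0.617, 0.508 and 1.05 CPM in ESC. Ifit2 thus fell by 2.07 ± 0.28 on the log2 scale from EpiSC to D3 and stood lower in naive than in primed cells, with a log2 difference of -4.01 ± 0.32 for ESC.

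Ifit3 and Ifit3b, 99.1% identical in coding sequence, are reported with the caution that their reads may have been divided between them. Ifit3 had 0, 0.158 and 0.187 CPM in EpiSC, no counts at D3, 5.15, 4.36 and 5.89 CPM at D5 and 27.4, 29.9 and 20.1 CPM at D8. It was at 0, 0.198 and 0 CPM in rES and without counts in ESC. Ifit3b had no counts in the 12 libraries of EpiSC, D3, rES and ESC. Ifit3b was at 1.73, 2.14 and 2.01 CPM at D5 and 9.38, 10.1 and 6.27 CPM at D8, at least 45.3-fold above EpiSC. Both copies were lowest in replicate 3 among the D8 libraries.

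Bst2 (tetherin), which holds budding virus at the cell surface, had the highest D8 level of the 40 in CPM per kb of exon, 521, ahead of Ifitm3 at 194 and Isg15 at 141. Bst2 had 87.3, 91.2 and 95.2 CPM in EpiSC and 14.96, 14.4 and 19.0 CPM at D3. Bst2 rose to 223, 228 and 216 CPM at D5 and 516, 494 and 402 CPM at D8. It was at 20.8, 20.9 and 21.01 CPM in rES and 30.4, 28.7 and 24.4 CPM in ESC. Primed cells thus held more Bst2 than D3 or naive cells, with log2 differences of -2.50 ± 0.11 for D3 against EpiSC and -2.12 ± 0.11 for rES against EpiSC. No library of D3, rES or ESC reached the EpiSC range.

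The Ifitm proteins block the entry of enveloped viruses, and Ifitm1 and Ifitm3 have long been used as markers of early germ cells. The 3 genes lie with Irf7 in 1 stretch of chromosome 7 (140954837-141266481 on mm10), and their course set them apart from the other effectors. Ifitm1 had 0.883, 0.808 and 0.701 CPM in EpiSC, 36.5, 36.8 and 37.6 CPM at D3, 5.45, 5.16 and 6.36 CPM at D5 and 18.1, 27.4 and 26.5 CPM at D8. It was at 33.4, 32.1 and 33.3 CPM in rES and 34.9, 37.3 and 42.4 CPM in ESC. Ifitm1 rose at D3 by 5.53 ± 0.17 and then fell by 2.71 ± 0.14 on the log2 scale from D3 to D5. Ifitm2 was at 142, 152 and 164 CPM in EpiSC, 93.4, 130.4 and 170.4 CPM at D3, 27.9, 23.7 and 23.7 CPM at D5 and 56.1, 63.8 and 109 CPM at D8. The naive libraries had 217, 199 and 195 CPM of Ifitm2 in rES and 164, 169 and 135 CPM in ESC. D5 was the lowest group for Ifitm2, below EpiSC, with a log2 difference of -2.60 ± 0.22, and the D8 libraries were spread from 56.1 to 109 CPM. Exons of Ifitm2 share 40.9% of their length with a gene model on the same strand, so its counts are uncertain.

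Ifitm3 had 15.5, 17.97 and 13.9 CPM in EpiSC, 55.1, 50.3 and 69.8 CPM at D3, 22.9, 27.5 and 30.9 CPM at D5 and 104, 149 and 141 CPM at D8. It stood at 90.9, 87.6 and 85.1 CPM in rES and 122, 132 and 131 CPM in ESC. The D5 libraries of Ifitm3 lay between EpiSC and D3, and the ESC libraries overlapped D8. For all 3 Ifitm genes, every D5 library lay below every D3 library. Over that step 15 of the 19 effectors were called higher (29.9% of all genes). The 3 called lower (29.6%) were the Ifitm genes, and nothing is read from these counts.

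The guanylate-binding proteins Gbp2 and Gbp3, GTPases that attack the membranes around intracellular pathogens, are targets of interferon gamma as well as of type I interferon. Gbp2 had 8.88, 8.64 and 10.03 CPM in EpiSC, 10.8, 9.73 and 9.59 CPM at D3, 51.8, 52.6 and 53.7 CPM at D5 and 99.0, 109 and 79.2 CPM at D8. It was at 0.127, 0.115 and 0.781 CPM in rES and 0.484, 0.328 and 0.396 CPM in ESC, below the primed cells, with a log2 difference of -4.51 ± 0.33 for ESC. Gbp3 stood at 0.562, 0.0634 and 0.483 CPM in EpiSC, 3.47, 3.49 and 2.81 CPM at D3, 35.7, 33.2 and 37.0 CPM at D5 and 86.2, 94.0 and 66.4 CPM at D8. Gbp3 was at 0.175, 0.132 and 0.49 CPM in rES and had no counts in ESC. In primed cells every Gbp2 value was above 8 CPM, while Gbp3 was under 1 CPM in each library.

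Xaf1, a pro-apoptotic partner of XIAP, and Rtp4, a chaperone of receptors that also binds RNA, rose from D3 to D5 and again to D8. Xaf1 had 0.514, 0.919 and 0.685 CPM in EpiSC, 4.18, 4.89 and 3.05 CPM at D3, 41.7, 47.5 and 51.3 CPM at D5 and 116, 109 and 84.5 CPM at D8. It was at 15.6, 21.9 and 20.9 CPM in rES and 22.5, 22.7 and 25.01 CPM in ESC, above EpiSC by 4.78 ± 0.22 and 5.05 ± 0.22 on the log2 scale. Rtp4 stood at 0, 0 and 0.109 CPM in EpiSC, 0.212, 0.275 and 0.356 CPM at D3, 22.8, 24.9 and 25.1 CPM at D5 and 52.7, 49.5 and 42.8 CPM at D8. Its naive levels were 1.45, 1.04 and 1.41 CPM in rES and 0.884, 0.573 and 0.904 CPM in ESC. Xaf1 kept 18.9% of its D8 mean in rES and Rtp4 2.69%. Exons of Rtp4 share 13.9% of their length with a transcript on the same strand.

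Isg20, an exonuclease that degrades viral RNA, and Mx2, a dynamin-like GTPase, complete the effectors above 5 CPM. GENCODE lists Mx2 as a polymorphic pseudogene, so whether its RNA encodes a working protein in these cells is not known. Isg20 had 0.128, 0.38 and 0.514 CPM in EpiSC, 2.51, 3.43 and 4.16 CPM at D3, 7.81, 8.93 and 7.94 CPM at D5 and 26.8, 24.8 and 22.9 CPM at D8. It was at 0.238, 0.313 and 0.214 CPM in rES and 0.334, 0.344 and 0.65 CPM in ESC, overlapping EpiSC in both. Mx2 had 0, 0 and 0.0623 CPM in EpiSC, 0.277, 0.122 and 0 CPM at D3, 4.30, 6.27 and 6.003 CPM at D5 and 12.4, 16.0 and 13.7 CPM at D8. It had no counts in rES and 0, 0 and 0.0565 CPM in ESC. Its neighbour Mx1 reached 2.18 ± 0.392 CPM at D8 with no counts in EpiSC or ESC, and Ifi44, whose function is less well known, 2.40 ± 0.688 CPM at D8 with none at D3, in rES or in ESC.

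**Figure D2:**
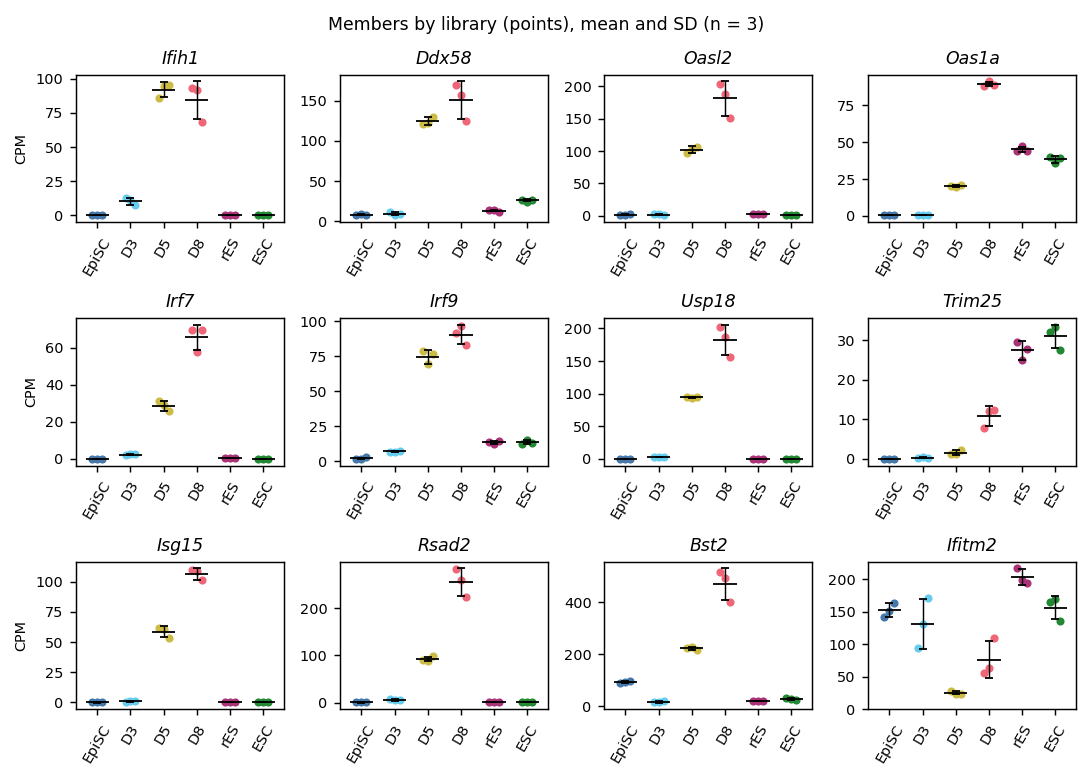
CPM of 12 of the 40 genes in each library (points, linear axes), with the mean and SD of each group of 3 as bars. Rsad2 at D8 lies at 224 to 282 CPM, against at most 0.627 CPM in rES. Oas1a keeps 43.9 to 47.1 CPM in rES, Trim25 is highest in rES and ESC, and Ifitm2 is lowest at D5.

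The level in naive cells relative to D8 divided the genes. Of the 33 that were highest at D8, the rES mean was under 5% of the D8 mean in 19, from 5% to under 25% in 9 and at least 25% in 5, limits set after the values were seen. Ifi44, without counts in rES, is among the 19, and the floor allows it up to 7.94%. The 5 were Oas1g at 61.2%, Oas1a at 50.3%, Ifitm3 at 66.8%, Cmpk2 at 46.9% and Oas2 at 26.7% of D8. Rsad2 was at 0.193% of D8 in rES. For Usp18, Isg15 and Ifih1, whose rES means were under the floor, the floor allows at most 0.105%, 0.179% and 0.226%. For Oas1a the ESC mean was 42.9% of D8, beside 50.3% in rES, and for Ddx58 17.5% beside 9.03%.

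**Figure D3:**
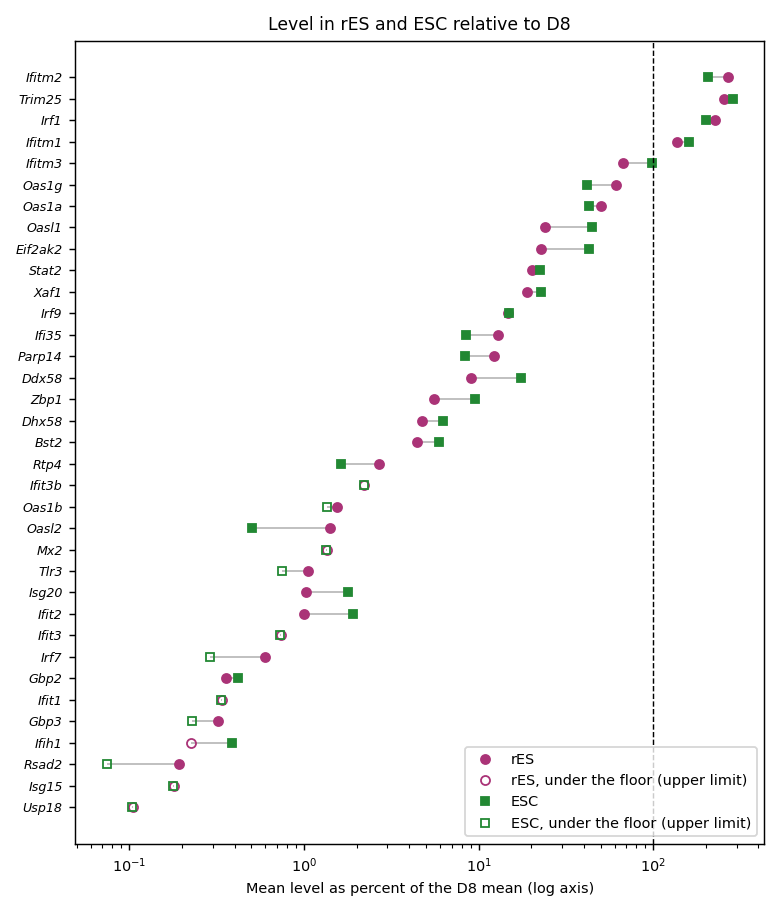
Mean level in rES (circles) and ESC (squares) as a percent of the D8 mean, on a log axis, for the 35 genes with at least 5 CPM in a group. Open symbols mark a mean under the floor and stand at the share the floor allows. Ifitm2, Trim25, Irf1 and Ifitm1 lie to the right of the dashed line at 100%.

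Between the naive groups themselves, 7 of the 40 genes were called higher in rES than in ESC (15.6% of all genes) and 6 lower (17.9%). DESeq2 called 14 higher and 9 lower. The sensors Ddx58, Eif2ak2, Zbp1 and Ifih1 were called lower in rES, with log2 differences of -0.95 ± 0.13 for Ddx58, -0.92 ± 0.08 for Eif2ak2 and -0.77 ± 0.18 for Zbp1. For Ifih1 the rES mean was under the floor. Bst2 and Ifitm3 were also lower, with log2 differences of -0.41 ± 0.11 and -0.55 ± 0.14. Oasl2 was higher in rES by 1.48 ± 0.28, as were Ifi35 and Parp14, and the other 4 called higher, Oas1b, Irf7, Mx1 and Gbp3, had ESC means under the floor.

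Lists of 114 pathway genes outside the 40 were also examined, of which 91 could be tested, and p-values are given for some. They hold interferons, receptors, signalling genes, negative regulators and 50 further interferon-stimulated genes, 47 of them tested. The lists were drawn up from textbook knowledge, with earlier results of these data known. Most genes named below were picked by a call at D5, at D8 or in ESC against EpiSC. Ifnar1, Ifnar2, Mavs, Irf3 and Ifnb1 were named in any case. For the picked genes, calls in those comparisons lend no support, and the other comparisons share libraries with them. In the whole pathway set, 53 of the 91 were called higher than EpiSC and 13 lower at D3, 70 and 7 at D5, 72 and 8 at D8, 32 and 31 in rES and 36 and 31 in ESC, beside the shares of all genes given above. In rES against D8, 16 were called higher and 60 lower. The further interferon-stimulated genes made up 41 of the 72 higher at D8 and 35 of the 60 lower in rES. Of the 20 interferon genes listed, 1, Ifnk, had enough counts to be tested. Ifnb1, the beta interferon made first after virus sensing, had no counts in 17 of the 18 libraries and 0.021 CPM as a mean at D8. None of the other 18, alpha, epsilon, gamma and lambda interferons, reached the floor as a mean in any group, and Ifnl3 stood at 0.0374 CPM at D5 and 0.0543 CPM at D8.

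Ifnk encodes interferon kappa, a type I interferon known from the skin, which signals through Ifnar1 and Ifnar2. Ifnk had 0, 0.269 and 0 CPM in EpiSC and 0.0652, 0 and 0 CPM at D3, both under the floor as means. It was at 2.68, 2.32 and 3.86 CPM at D5 and 28.7, 29.0 and 20.5 CPM at D8, and had no counts in rES or ESC. Ifnk passed the filter on low counts only through its D5 and D8 libraries, so no p-value is given for it. D8 lay above D5 by 3.14 ± 0.54 on the log2 scale, a call that edgeR made and DESeq2 did not. D8 was at least 137-fold above rES. The gene (chr4:35152056-35154005, plus strand) lies inside a gene of the opposite strand, Mob3b, with 0 exon bases shared. Mob3b had 14.9 ± 0.734 CPM in EpiSC, 27.2 ± 1.68 CPM at D5, 33.9 ± 4.01 CPM at D8 and 13.0 ± 1.37 CPM in rES, and whether its unspliced RNA was counted for Ifnk was not tested.

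Of the 9 receptor chains and JAK kinases, 9 were called higher than EpiSC at D5 (37.7% of all genes) and 8 at D8 (42.4%), none lower. In rES against D8, 8 were called lower (38.4%) and 1, Tyk2, higher (32.7%). Ifnar1, a chain of the type I receptor, was present throughout. Ifnar1 had 60.3, 61.8 and 66.5 CPM in EpiSC, 101.98, 97.2 and 99.3 CPM at D3, 95.5, 94.9 and 106 CPM at D5 and 129, 124 and 92.8 CPM at D8. It was at 49.8, 48.8 and 48.6 CPM in rES and 45.7, 49.9 and 52.1 CPM in ESC. Ifnar1 was higher at D8 than in EpiSC by 0.87 ± 0.10 (edgeR, adjusted p = 1.73e-07) and lower in rES than at D8, with a log2 difference of -1.23 ± 0.10 (adjusted p = 2.26e-09). Ifnar2, its partner, had 10.1, 13.5 and 11.1 CPM in EpiSC, 16.2, 19.2 and 19.8 CPM at D3, 39.7, 38.9 and 37.6 CPM at D5 and 75.1, 71.9 and 64.0 CPM at D8. Ifnar2 was at 7.96, 6.05 and 8.05 CPM in rES and 8.24, 8.35 and 7.77 CPM in ESC. The log2 difference of Ifnar2 was 2.60 ± 0.13 at D8 against EpiSC (edgeR, adjusted p = 1.98e-12).

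Ifnlr1, the chain that gives the type III receptor its specificity, rose at each step to D8. Ifnlr1 had 0.739, 0.697 and 1.31 CPM in EpiSC, 6.82, 8.43 and 9.69 CPM at D3, 19.5, 18.4 and 16.6 CPM at D5 and 54.8, 48.0 and 48.1 CPM at D8. It was at 3.10, 3.04 and 3.22 CPM in rES and 2.65, 1.95 and 2.90 CPM in ESC, and D8 exceeded EpiSC by 5.78 ± 0.22 on the log2 scale. Il10rb, the chain it shares with the interleukin-10 receptor, had 0.883, 0.856 and 0.981 CPM in EpiSC, 21.8, 20.9 and 18.6 CPM at D3, 32.3, 34.0 and 32.0 CPM at D5 and 43.6, 43.4 and 33.0 CPM at D8. Il10rb was at 0.89, 0.313 and 0.291 CPM in rES and 1.25, 0.819 and 0.608 CPM in ESC. Its log2 difference from EpiSC was 4.49 ± 0.28 already at D3 (edgeR, adjusted p = 1.18e-10). Ifngr1, a chain of the gamma receptor, was called higher than EpiSC at D5 and not at D8 (edgeR, adjusted p = 0.219, and 0.0346 without D8 replicate 3). Ifngr1 had 19.5, 22.7 and 21.8 CPM in EpiSC, 30.5, 30.4 and 28.8 CPM at D5 and 27.4, 26.6 and 19.4 CPM at D8. It was at 2.73, 3.88 and 3.37 CPM in rES and 4.95, 6.98 and 6.49 CPM in ESC, lower in rES than in EpiSC, with a log2 difference of -2.68 ± 0.16 (edgeR, adjusted p = 5.16e-11).

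Among the 19 tested adaptors, kinases and transcription factors, 14 were called higher than EpiSC (37.7% of all genes) and 2 lower (34.3%) at D5, and 12 higher (42.4%) and 2 lower (34.5%) at D8. Mavs, the adaptor of the RNA helicases, was lowest at D5 and D8. Mavs had 22.4, 20.5 and 19.4 CPM in EpiSC, 24.3, 28.1 and 24.7 CPM at D3, 12.1, 10.9 and 9.56 CPM at D5 and 13.2, 15.5 and 17.3 CPM at D8. It was at 59.6, 55.9 and 60.9 CPM in rES and 61.6, 58.9 and 61.5 CPM in ESC. Mavs was thus lower at D5 than in EpiSC, with a log2 difference of -0.93 ± 0.11 (edgeR, adjusted p = 3.17e-07) and higher in rES than at D8 by 1.94 ± 0.11 (adjusted p = 1.66e-11).

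Irf3, the constitutive factor that Mavs signalling activates, was present in every group. Irf3 had 19.4, 19.9 and 21.2 CPM in EpiSC, 27.3, 30.7 and 39.0 CPM at D3, 32.8, 41.0 and 36.8 CPM at D5 and 24.1, 21.8 and 21.8 CPM at D8. It was at 20.6, 16.6 and 18.6 CPM in rES and 16.3, 17.8 and 17.9 CPM in ESC, and the largest of its differences from EpiSC was 0.87 ± 0.12 at D5 (edgeR, adjusted p = 4.35e-06). Ikbke, an interferon-inducible kinase that phosphorylates Irf3 and Irf7, had 0.433, 0.491 and 0.374 CPM in EpiSC, 10.6, 9.25 and 12.9 CPM at D3, 10.9, 10.5 and 12.7 CPM at D5 and 9.43, 7.67 and 7.53 CPM at D8. Ikbke was at 0.604, 0.61 and 0.873 CPM in rES and 0.183, 0.36 and 0.692 CPM in ESC. Sting1, the adaptor of DNA sensing, had its highest mean at D3, with 0.722, 0.665 and 0.529 CPM in EpiSC, 13.8, 16.1 and 15.7 CPM at D3, 2.9997, 2.53 and 1.77 CPM at D5 and 1.77, 1.68 and 2.04 CPM at D8. Sting1 was at 4.23, 4.70 and 5.59 CPM in rES and 14.7, 15.1 and 11.9 CPM in ESC, lower in rES, with a log2 difference of -1.52 ± 0.19 (edgeR, adjusted p = 9.22e-06). Irf5, another interferon regulatory factor, was also highest at D3, with 7.99, 9.16 and 12.004 CPM at D3 against 0.289, 0.523 and 0.514 CPM in EpiSC and 1.41, 2.92 and 3.05 CPM at D5, and a log2 difference from D3 to D5 of -1.98 ± 0.30 (adjusted p = 1.48e-05).

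**Figure D4:**
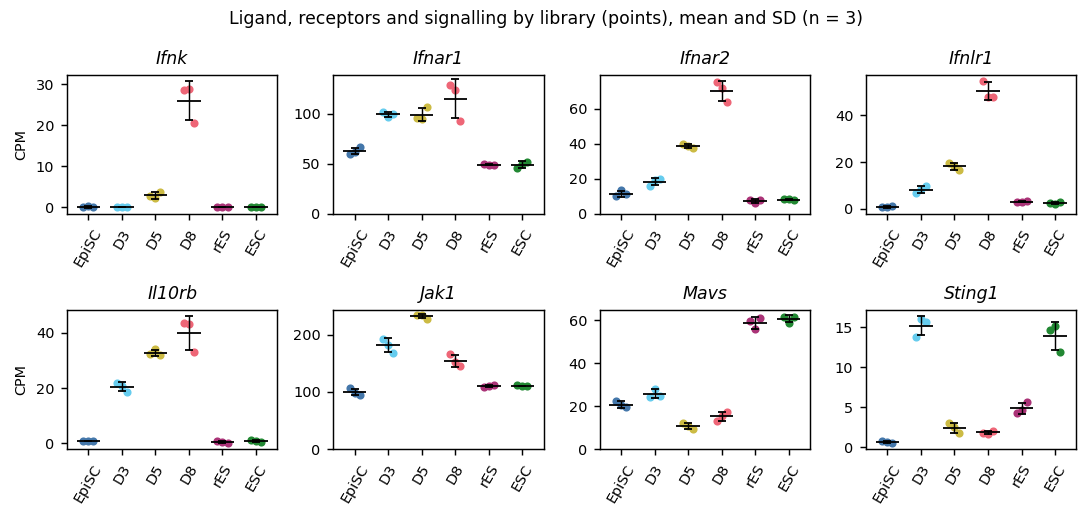
CPM of 8 genes upstream of the response in each library (points, linear axes), with the mean and SD of each group of 3 as bars. Ifnk, Ifnlr1 and Ifnar2 are highest at D8, and Sting1 has its highest mean at D3, where the libraries overlap ESC. Mavs lies at 9.56 to 17.3 CPM at D5 and D8 and at 55.9 to 61.6 CPM in rES and ESC.

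Another list holds 15 genes that restrain the response or remove the cell's own nucleic acids. Of the 15, 10 were called higher than EpiSC and 4 lower at D5, and 10 and 5 at D8, beside 37.7% and 34.3% of all genes at D5 and 42.4% and 34.5% at D8. In rES against D8, 6 were called higher (32.7% of all genes) and 4 lower (38.4%). Rnf125, a ubiquitin ligase that marks RIG-I and Mavs for destruction, had 1.57, 2.22 and 1.93 CPM in EpiSC, 19.1, 18.4 and 17.1 CPM at D3, 6.34, 5.88 and 7.504 CPM at D5 and 37.7, 46.7 and 70.5 CPM at D8. Rnf125 was highest in the naive groups, at 169.8, 176 and 177 CPM in rES and 96.3, 97.1 and 101 CPM in ESC, above D8 by 1.75 ± 0.16 for rES (edgeR, adjusted p = 1.64e-08). Nlrx1, a mitochondrial protein reported to hold back Mavs, was at 0, 0 and 0.109 CPM in EpiSC, 0.977, 1.78 and 1.71 CPM at D8, 4.35, 4.26 and 3.95 CPM in rES and 6.20, 6.09 and 5.85 CPM in ESC. For both genes every naive library lay above every primed one. Trex1, the DNA exonuclease, was at 3.58, 2.28 and 1.14 CPM in EpiSC, 20.0, 17.3 and 17.1 CPM at D8 and 0.906, 0.973 and 2.89 CPM in rES, with the D5 libraries far apart at 13.8, 24.5 and 1.48 CPM. Rnaseh2c, a subunit of the enzyme that removes RNA from DNA, was at 22.8, 23.4 and 29.7 CPM in EpiSC and 5.27, 4.03 and 9.08 CPM at D8, lower, with a log2 difference of -2.05 ± 0.24.

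A further list holds 50 interferon-stimulated genes outside the 40, 47 of them tested, and was also drawn up with earlier results known. Those without counts in EpiSC, such as Gbp7, Sp100 and Ddx60, passed the filter only through other groups. For them the filter favoured calls above EpiSC, and for genes under the floor in rES it could likewise favour calls below D8. Of the 47, 36 were called higher than EpiSC at D5 (37.7% of all genes) and 1 lower (34.3%). At D8, 41 were called higher (42.4%) and 1 lower (34.5%). In rES against D8, 5 were called higher (32.7%) and 35 lower (38.4%). Their median log2 difference from EpiSC was 3.54 at D8, with genes without counts at their bound, beside 0.19 over all genes. Gbp7, a relative of Gbp2, had no counts in EpiSC, 0.685, 0.857 and 0.684 CPM at D3, 11.6, 12.9 and 13.8 CPM at D5 and 28.4, 26.9 and 19.2 CPM at D8. Gbp7 was at 0.111, 0.346 and 0.153 CPM in rES and 0.417, 0.344 and 0.48 CPM in ESC, lower in rES than at D8, with a log2 difference of -6.93 ± 0.32. Sp100, a nuclear body protein, was also without counts in EpiSC and had 12.5, 9.34 and 13.6 CPM at D5, 19.2, 15.5 and 13.5 CPM at D8 and 1.89, 2.69 and 2.17 CPM in rES. Ddx60, a helicase reported to aid RIG-I, was at 5.55, 5.29 and 6.07 CPM at D5, 15.4, 18.5 and 14.7 CPM at D8 and 5.59, 4.19 and 5.44 CPM in rES, with no counts in EpiSC. Phf11d was the exception among the 4 genes named from this list. Phf11d had 0, 0 and 0.0467 CPM in EpiSC, 1.80, 1.39 and 1.92 CPM at D5 and 24.7, 25.8 and 28.4 CPM at D8. It was highest in naive cells, at 100.5, 96.8 and 105 CPM in rES and 114, 108 and 117 CPM in ESC (rES above D8 by 1.94 ± 0.14, edgeR, adjusted p = 7.52e-10).

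Markers of other cell types also stood at different levels in these groups. Of the 10 macrophage and leukocyte markers, the sum was 5.76 to 6.01 CPM in EpiSC, 90.4 to 98.9 CPM at D5, 198 to 276 CPM at D8 and 6.40 to 6.74 CPM in rES. At D8 that sum was carried by Csf1r, at 218 ± 37.4 CPM, and Cd68, at 20.7 ± 3.75 CPM, and Ptprc, the defining leukocyte marker, had 0, 0.0713 and 0 CPM. Of the other leukocyte markers, Adgre1, Cx3cr1 and Fcer1g were under the floor at D8, and Lyz2, Tyrobp, Itgam and Cd14 were under 1 CPM as means. The 10 trophoblast markers summed to 239.8 to 272 CPM in EpiSC, 2721 to 3222 CPM at D3, 4309 to 4613 CPM at D5, 3399 to 4537 CPM at D8 and 14.8 to 18.5 CPM in rES, mostly through the keratins Krt8 and Krt18. Among the other trophoblast markers, Hand1, Ascl2 and Cdx2 had their highest means at D3 and lower ones after it. Hand1 was at 458 CPM at D3, 39.7 CPM at D5 and 12.1 CPM at D8. Ascl2 was at 81.3, 15.3 and 3.16 CPM and Cdx2 at 30.8, 1.77 and 1.65 CPM. Krt7 and Elf5 had their highest means at D5, at 407 and 11.2 CPM, with 403 and 3.87 CPM at D8. Gata3 had its highest mean at D8, at 35.4 CPM. Prl3d1 had no counts in any library and Tpbpa was under the floor in every group. The 10 fibroblast markers summed to 40.5 to 57.2 CPM in EpiSC, 575 to 736 CPM at D3, 1044 to 1742 CPM at D8 and 28.7 to 32.4 CPM in rES. That sum was mostly Col1a1, Col3a1, Postn, Lum and Col1a2 at D8. Thy1, at 38.3 CPM at D3 and 1.32 CPM at D8, Pdgfrb, at 56.7 and 10.9 CPM, Fbn1, at 72.9 and 44.8 CPM, and Twist2, at 4.87 and 0.214 CPM, had lower means at D8 than at D3. The 7 erythroid markers summed to 0.353 to 0.776 CPM in EpiSC, 181 to 332 CPM at D5 and 57.5 to 136 CPM at D8. The part of these cells in the interferon-response levels was not tested.

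The D8 libraries differed among themselves. Replicate 3 was the lowest of the 3 in 25 of the 35 genes with at least 5 CPM, at a median of 0.901 of the group mean. Summed levels in D8 replicates 1, 2 and 3 were 437, 425 and 339 CPM for the sensors and 1622, 1664 and 1426 CPM for the effectors. The naive markers ran the other way, at 971, 1182 and 1827 CPM. The trophoblast sum was also lowest in replicate 3, at 4537, 4135 and 3399 CPM, mostly through keratins. Krt8, Krt18, Krt7 and Cdx2 were lowest in replicate 3, and Gata3, Hand1, Ascl2 and Elf5 were not. Gata3 had 37.6, 30.2 and 38.3 CPM and Hand1 9.80, 14.0 and 12.5 CPM. The fibroblast markers summed to 1044, 1742 and 1240 CPM. Without replicate 3, 37 genes were called higher at D8 than in EpiSC and 2 lower.

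**Figure D5:**
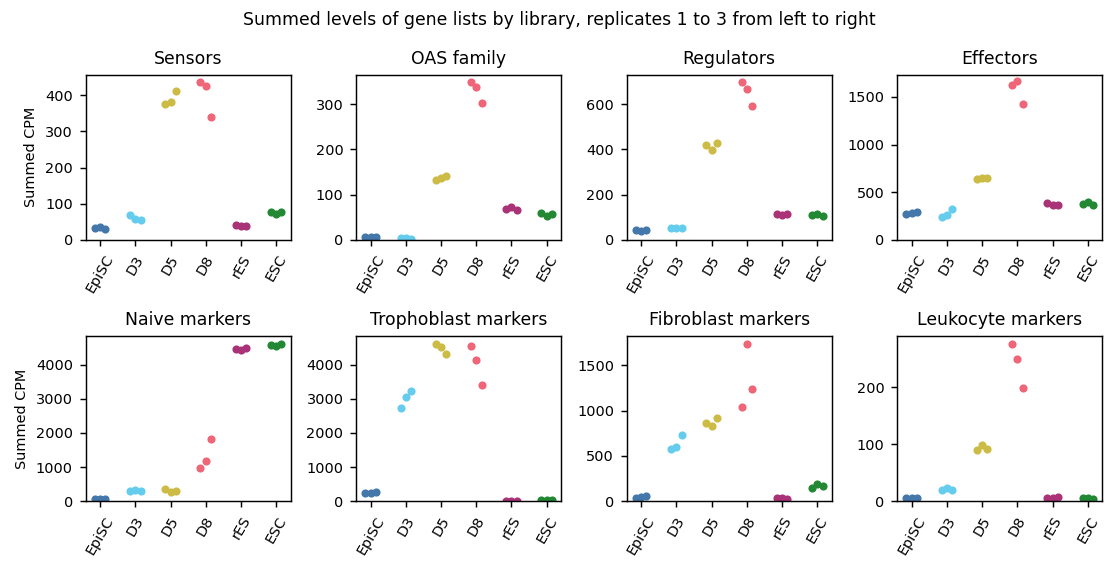
Summed CPM of the 4 groups of interferon-response genes and of 4 marker lists in each library (points, linear axes, replicates 1 to 3 from left to right in each group). The sensors and the trophoblast markers are highest at D5 and D8, and the effectors and the fibroblast markers at D8. The naive markers are at 4426 CPM or more in each rES and ESC library.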

How the data were processed

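RNA was measured in 18 libraries, 3 in each of 6 groups taken from the labels. Total RNA was freed of ribosomal RNA and sequenced in pairs of 150-base reads, per the labels' protocols. The authors used bcl2fastq, Trim Galore and HISAT2 with mm10, per the submitters' processing notes, which give no versions. The deposited table gives the authors' expected counts as whole numbers for each gene symbol in every library, on no further scale. Which program, annotation and strand mode made the counts is not given in the sources used here. Overlapping genes and near-identical copies may therefore be miscounted. Low deposited counts bunch at 4 and 8 (157 genes at 3, 314.5 at 4 and 105.5 at 5 in the median library), which is why the floor was set at 12 counts and counts divided by 4 were tried.

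The counts of all 18 libraries were fitted together in R 4.3.3 (limma 3.58.1, edgeR 4.0.16) after filterByExpr (17545 of 25239 genes) and TMM scaling (factors 0.945 to 1.050). Each of 9 comparisons used the quasi-likelihood F test, Benjamini-Hochberg adjustment over all tested genes and a threshold of 0.05. The common biological coefficient of variation was 0.167. Standard errors are the absolute log2 difference over the square root of F, and are approximate. The steps were tested on simulated data. Gene positions and exon lengths came from GENCODE release vM21 on GRCm38 (mm10), promoters from RefSeq on GRCm38.p6.

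The 40 genes, the pathway lists and the marker lists were chosen with earlier results of these data known. Values by library are given for members with at least 5 CPM in a group. From each pathway list up to 4 genes are named, those called at D5, at D8 or in ESC against EpiSC with at least 5 CPM in a group and the largest log2 difference there. Ifnar1, Ifnar2, Mavs, Irf3 and Ifnb1 are named in any case, and 1 gene that the rule also named is not reported here. The marker lists were naive, primed, trophoblast, fibroblast, macrophage and leukocyte, endothelial, primitive or visceral endoderm, and erythroid. Alternatives were other scaling (RLE), no filter, DESeq2 1.42.0, a replicate block, each pair of groups fitted alone, counts divided by 4, each library left out in turn, and the motif with 1 mismatch.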

Additional observations from a re-analysis of the deposited data

How the results depend on the processing

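The counts of members and of pathway genes called, both directions together, in each of the 9 comparisons stayed within 1.5 times their reported value under every alternative run, with 1 exception: DESeq2 called 23 members between rES and ESC (14 higher, 9 lower) where edgeR called 13. With up to 1 mismatch allowed, the ISRE core was found in 83.9% of the members' promoters and 35.7% of all promoters. Replicate numbers did not pair the libraries: residuals of the 45 pairs with a number in common correlated at a median of 0 (-0.061 to 0.053), and 6 of 18 libraries were closest to one of their own number. With the replicate block, 39 members were called at D8 against EpiSC, the same count as without it, and 27 rather than 30 from D5 to D8. Other scaling moved the log2 differences of all genes by a median of 0.15 in rES and 0.11 in ESC against EpiSC with RLE and DESeq2, and by 0.17 and 0.13 with the 2 groups alone. The split of members called in ESC against EpiSC, 18 higher and 9 lower, became 18 and 5 with the 2 groups alone and 20 and 6 without EpiSC replicate 3. Taken by direction, the members called lower in rES against EpiSC went from 7 to 4 without rES replicate 3, and those lower at D8 from 2 to 1 without EpiSC replicate 1, EpiSC replicate 2 or D8 replicate 1. A change of sign was counted only where the main fit or the alternative made a call. Differences that turned sign or went to 0 in this sense all belong to genes with both groups at or under the floor. With each library left out in turn, the log2 difference from EpiSC ran from 0 to 5.10 for Oas2 and 0 to 4.68 for Ddx60 at D3 (0 without D3 replicate 1). For Ifnk it ran from -6.16 to 0 in rES and in ESC (0 without EpiSC replicate 2). For Ifit1 it ran from -1.29 to 5.61 at D3, -6.86 to 0 in rES and -1.32 to 5.78 in ESC (the upper values without EpiSC replicate 3). Among single genes, leaving out 1 library kept a call with its direction, or the lack of a call, in 3069 values. It lost the call in 126 and gained it in 38. The other alternatives kept 3065, lost 56 and gained 71. Depth limits statements on genes under 12 counts per library.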

Other observations

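Further interferon-stimulated genes outside the 40 are given here as values, chosen after they were seen and therefore without p-values. Pml, which organises nuclear bodies, was at 106 ± 4.49 CPM in EpiSC, 40.4 ± 1.65 CPM at D5, 76.9 ± 18.3 CPM at D8, 262 ± 1.35 CPM in rES and 271 ± 1.59 CPM in ESC (SD, n = 3). Pml was lower at D5 than in EpiSC, with a log2 difference of -1.39 ± 0.11, and higher in rES than at D8 by 1.77 ± 0.12. Parp12, an ADP-ribosyltransferase, was under the floor in EpiSC and at D3. It was at 0.443 ± 0.0608 CPM at D5, 21.5 ± 4.99 CPM at D8, 41.6 ± 1.04 CPM in rES and 19.6 ± 2.01 CPM in ESC. Parp12 was higher in rES than in ESC by 1.08 ± 0.20 on the log2 scale.

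Lgals3bp, a secreted glycoprotein, and Lgals9, a galectin, were abundant at D5 and D8. Lgals3bp had 0.954 ± 0.672 CPM in EpiSC, 163 ± 9.19 CPM at D5, 528 ± 118 CPM at D8 and 0.811 ± 0.0258 CPM in rES, a log2 difference from D8 of -9.34 ± 0.33. Lgals9 had 0.395 ± 0.578 CPM in EpiSC, 123 ± 1.84 CPM at D5, 366 ± 66.7 CPM at D8 and 4.52 ± 0.324 CPM in rES, which was -6.34 ± 0.37 against D8 on the log2 scale. Zc3hav1, an antiviral RNA-binding protein, rose and kept most of its level, at 61.2 ± 5.33 CPM in EpiSC, 315 ± 12.2 CPM at D8 and 213 ± 3.77 CPM in rES. It was lower in rES than at D8, with a log2 difference of -0.56 ± 0.07.

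The endothelial markers summed to 13.6 to 21.7 CPM in EpiSC, 86.3 to 135 CPM at D8 and 288 to 299 CPM in rES. Pecam1 alone was at 250.2 ± 4.96 CPM in rES, and Emcn had no counts at D8 or in the naive groups. The endoderm markers summed to 6.67 to 8.11 CPM in EpiSC, 94.5 to 109 CPM at D8 and 17.7 to 19.7 CPM in rES.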
